A study of Mus musculus with 2 samples.

Results

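Interleukin 17 type gamma-delta-like T cells of the mouse liver were described in 2 single-cell RNA libraries. Cells with at least 300 genes and under 20% mitochondrial counts were kept, and a cell was gated when it had at least 1 UMI (unique molecular identifier, 1 counted RNA molecule) of Cd3d, Cd3e or Cd3g and at least 1 UMI of Cd163l1 or Il23r. It also had to have no UMI of Cd8a, Cd8b1 or Foxp3 and fewer than 3 UMIs summed over the cycling genes Mki67, Top2a and Birc5. The members were thus chosen by measured values, the UMIs of these genes, and nothing about those genes is a finding. The gate took 404 of 18867 cells, made up of 223 of 8877 cells in the PKM2ΔMAC library and 181 of 9990 cells in the PKM2FL/FL library. Both libraries held liver cells other than hepatocytes, obtained by perfusion and a density gradient from mice kept on MCD diet (an abbreviation in common use for methionine- and choline-deficient feeding) for 8 weeks. PKM2ΔMAC names a loss of pyruvate kinase M2 in macrophages and PKM2FL/FL its floxed counterpart, written ΔMAC and FL/FL from here on. Neither the promoter driving the deletion nor the number of mice pooled in a library is stated. With 1 library per genotype there was no replicate and no test: ΔMAC and FL/FL values are set side by side, and the 95% intervals cover counting error only.

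Interleukin 17-producing gamma-delta T cells leave the thymus already committed to the cytokine they make, and they respond to interleukin 1 and interleukin 23 without needing a fresh encounter with antigen. The transcription factors Sox13 and Maf and the kinase Blk mark their development. In liver they are a resident-type population that is known for neutrophil recruitment and for a part in steatohepatitis. Scart1, encoded by Cd163l1, and Scart2, encoded by 5830411N06Rik, are scavenger receptors carried by separate groups of these cells, and the interleukin 23 receptor is shared with other type 17 lymphocytes.

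The receptors that chose the cells and the cytokines they are named for are shown by the bases just before their transcription starts, because the gate and the cytokine results turn on these genes. The sequences are the 250 bases before the RefSeq start of each gene (GRCm38.p6), 5′ to 3′ on the gene's strand, and capitals mark each match to TATAAA, the core of the TATA box, or to its reverse complement TTTATA, a motif chosen after the data were seen.
Il17a, chr1:20730655-20730904, plus strand: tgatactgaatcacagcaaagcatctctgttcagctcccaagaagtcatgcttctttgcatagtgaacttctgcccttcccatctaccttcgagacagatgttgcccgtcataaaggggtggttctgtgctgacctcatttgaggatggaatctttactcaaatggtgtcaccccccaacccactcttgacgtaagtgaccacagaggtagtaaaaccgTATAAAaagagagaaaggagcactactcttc
Il17f, chr1:20784271-20784520, minus strand: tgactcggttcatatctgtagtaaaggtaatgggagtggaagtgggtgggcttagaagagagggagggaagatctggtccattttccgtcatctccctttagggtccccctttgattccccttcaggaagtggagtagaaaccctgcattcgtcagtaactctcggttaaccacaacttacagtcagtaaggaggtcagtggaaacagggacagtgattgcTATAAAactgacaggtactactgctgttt
Il23r, chr6:67491856-67492105, minus strand: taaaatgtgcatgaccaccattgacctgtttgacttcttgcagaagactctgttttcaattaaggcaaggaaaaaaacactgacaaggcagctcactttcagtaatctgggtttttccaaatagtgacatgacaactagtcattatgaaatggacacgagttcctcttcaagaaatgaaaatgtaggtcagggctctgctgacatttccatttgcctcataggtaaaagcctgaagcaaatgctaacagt
Cd163l1, chr7:140218017-140218266, plus strand: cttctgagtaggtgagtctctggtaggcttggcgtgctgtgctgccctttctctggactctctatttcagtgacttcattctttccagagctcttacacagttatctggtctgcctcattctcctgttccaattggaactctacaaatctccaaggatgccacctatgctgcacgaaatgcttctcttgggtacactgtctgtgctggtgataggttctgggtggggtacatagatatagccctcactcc
The Il17a match lay 31 to 26 bases before the start and the Il17f match 29 to 24 bases before it. The Il23r and Cd163l1 windows held none. Over 32817 promoter windows of this length, 12.4% held at least 1 match on either strand and 1.38% held 2 or more. A match here is a description of letters, not of a bound site.

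In the GENCODE annotation of the same assembly, Cd163l1 (ENSMUSG00000025461) spans chr7:140218267-140231145 on the plus strand and Il23r (ENSMUSG00000049093) spans chr6:67422932-67491855 on the minus strand. Il17a (ENSMUSG00000025929) spans chr1:20730905-20734496 on the plus strand, with Il17f (ENSMUSG00000041872) at chr1:20777146-20790617 on the minus strand of the same region. The RefSeq start of Il17f used above lies inside this span, so the annotations differ on where Il17f begins. The counts come from 3′ tags of whole genes, so exons and isoforms are not told apart.

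The libraries had 8949 barcodes in ΔMAC and 10054 in FL/FL, of which 72 and 64 fell to the filters, with median depths of 3791 UMIs in ΔMAC and 4504.5 UMIs in FL/FL. Gated cells were deeper than these medians and close to each other, at 5258 UMIs in ΔMAC and 5418 UMIs in FL/FL. The libraries shared 17 barcodes, and none of them was a gated cell. Levels are CPM, the UMIs of a gene per 1000000 UMIs summed over the gated cells of a library (1260188 UMIs in ΔMAC and 1104113 in FL/FL). Pkm, the gene targeted by the deletion (ENSMUSG00000032294, chr9:59656368-59679375, plus strand), was read at 212 CPM in ΔMAC gated cells and at 312 CPM in FL/FL gated cells, a log2 ratio of -0.56. The other Cd8-negative T cells had 182 CPM in ΔMAC and 248 CPM in FL/FL, so the lower value was not seen in gated cells alone. The gated cells are not the macrophages the deletion is named for, the deleted part of Pkm is not stated, and a 3′ tag outside it checks nothing about the genotype.

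The gate genes themselves were read at low depth. Cd163l1 alone was found in 71 gated cells in ΔMAC and 69 in FL/FL, Il23r alone in 109 cells in ΔMAC and 82 in FL/FL, and both in 43 cells in ΔMAC and 30 in FL/FL. Cells with Cd163l1 had a median of 4 UMIs of it in either library, whereas cells with Il23r had a median of 1 UMI. A single UMI of the gate genes let in 94 ΔMAC and 96 FL/FL cells. As a background for such single UMIs, 6 of 1988 B cells in ΔMAC (0.302%) and 10 of 1903 B cells in FL/FL (0.525%), a type that should lack both genes, had a UMI of Cd163l1 or Il23r, at median depths of 2824 UMIs in ΔMAC and 3286 UMIs in FL/FL. The same share was 3.85% in ΔMAC and 1.86% in FL/FL among CD8 T cells.

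The label was checked against 13 type 17 genes that the gate did not use, among them Icos, Il1r1, Ramp3, Sox13, Maf, Blk, Il17a, Il17f, Il7r, Ccr6, Cxcr6 and 5830411N06Rik. Members and genes were chosen with earlier results of these data known, so the check is not independent of them. Gated cells had a median of 7 of these genes in ΔMAC and 6 in FL/FL. The other Cd8-negative, Foxp3-negative T cells (1044 in ΔMAC and 1926 in FL/FL) had a median of 2 in either library, and B cells had 0 in ΔMAC and 1 in FL/FL. At least 5 of the 13 were found in 198 gated cells in ΔMAC (88.8%) and 157 in FL/FL (86.7%), against 175 other Cd8-negative T cells in ΔMAC (16.8%) and 200 in FL/FL (10.4%). With every cell thinned to 1000 UMIs the mean was 3.41 genes in gated cells and 1.24 in other Cd8-negative T cells of ΔMAC, and 3.15 and 1.07 in those of FL/FL (unthinned, 6.52 and 2.31 in ΔMAC, and 6.45 and 2.33 in FL/FL). Only 6 gated cells in ΔMAC and 8 in FL/FL had 2 or fewer of the 13. Some of the 13 are common in other T cells. Il7r was found in 70.6% of the other Cd8-negative T cells in ΔMAC and 71.6% in FL/FL. Others were found in a minority of gated cells, such as Sox13 in 50 in ΔMAC and 37 in FL/FL, and Il17f in 8 and 11. The type 17 part of the label thus matched the markers as a group and not each of them. No T cell receptor segment gene was among the 27998 genes counted, so gamma-delta and alpha-beta receptors could not be told apart. Cd4, the co-receptor of helper T cells, was found in 1 gated cell of 223 in ΔMAC (0.448%) and in 10 of 181 in FL/FL (5.52%).

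**Figure D1:**
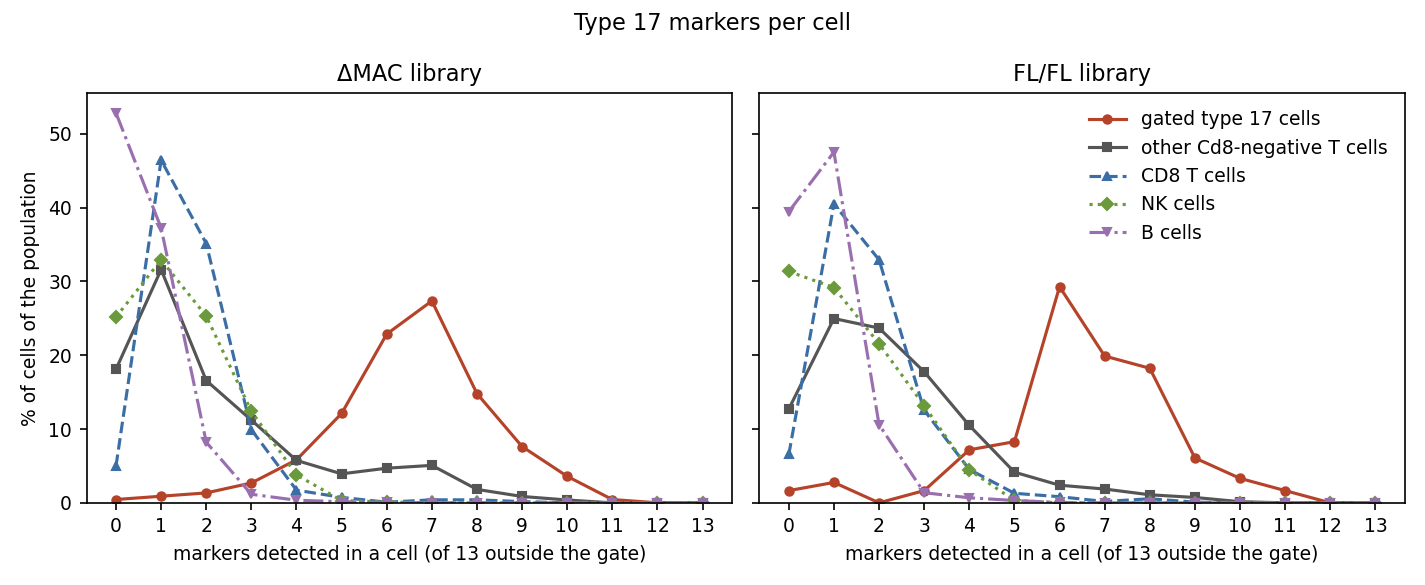
Share of cells (%) by the number of 13 type 17 genes detected in the cell, for gated cells and 4 comparison populations, ΔMAC library on the left and FL/FL library on the right. Gated cells peak at 7 genes in ΔMAC and 6 in FL/FL, while the other Cd8-negative T cells have a median of 2 with a tail of 16.8% in ΔMAC and 10.4% in FL/FL at 5 or more.

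Cells just inside and just outside the threshold were compared without a test. In ΔMAC, Il17a stood at 1065 CPM in cells with 2 or more UMIs of the gate genes, 56.0 CPM in cells with 1 UMI and 55.7 CPM in other Cd8-negative T cells with none, and in FL/FL the same steps were 1207, 79.8 and 12.3 CPM. It was found in 30.2%, 10.6% and 2.39% of the cells at these steps in ΔMAC, and in 38.8%, 6.25% and 1.40% in FL/FL. The level at no UMI in ΔMAC came from 25 of 1044 cells. Icos ran the other way inside the gate, with 652 CPM at 2 or more UMIs, 1020.3 CPM at 1 UMI and 335 CPM at none in ΔMAC, and 510.4, 1030.5 and 211 CPM in FL/FL. Cells with 1 UMI nevertheless carried a median of 6 of the 13 markers in both libraries, against 7 in cells with 2 or more. Of the cells let in by 1 UMI, 79 of 94 in ΔMAC and 75 of 96 in FL/FL had that UMI in Il23r. The cells with 1 UMI thus carried several of the 13 markers at a low level of Il17a. Sox13 was found in 5.32% of them in ΔMAC and 0% in FL/FL.

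Of the cells with a gate gene, 306 in ΔMAC and 227 in FL/FL, some failed another limit. The lack of a Cd3 UMI excluded 27 cells in ΔMAC and 23 in FL/FL, which had a median of 2 of the 13 markers in ΔMAC and 1 in FL/FL. A Cd8a or Cd8b1 UMI excluded 50 cells in ΔMAC and 21 in FL/FL, and these had a median of 2 of the 13 markers in ΔMAC and 6 in FL/FL. The cycling limit excluded 6 cells in ΔMAC, which had a median of 9 markers and held 197 Il17a UMIs in 5 of the cells, and 2 cells in FL/FL with 1 Il17a UMI. No cell was excluded by Foxp3 alone.

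Il17a, the defining cytokine, was present at 636 CPM (592 to 681) in ΔMAC gated cells and 579.7 CPM (536 to 626) in FL/FL gated cells. It was found in 49 of 223 cells in ΔMAC (22.0%) and 39 of 181 in FL/FL (21.5%), with up to 114 UMIs in a single ΔMAC cell and 64 in a single FL/FL cell. The level was thus carried by a minority of cells, and the 5 highest cells held 43.2% of the UMIs in ΔMAC and 40.8% in FL/FL. Thinned to 1000 UMIs, Il17a was found in 14.4% of gated cells in ΔMAC and 16.6% in FL/FL, against 1.79% and 0.423% of the other Cd8-negative T cells and 0.104% and 0.106% of B cells in the same libraries. Gated cells made up a small part of either library but held 55.9% of its Il17a UMIs in ΔMAC (801 of 1434) and 74.4% in FL/FL (640 of 860). The largest remainder lay in the other Cd8-negative T cells, with 282 UMIs in ΔMAC (19.7%) and 135 in FL/FL (15.7%).

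The other type 17 cytokines were sparse. Il17f, which pairs with interleukin 17A, was at 17.5 CPM in 8 ΔMAC cells and 42.6 CPM in 11 FL/FL cells, and Il22, which acts on epithelium and hepatocytes, at 50.8 CPM in 7 ΔMAC cells and 7.25 CPM in 2 FL/FL cells. A single cell held 27 of the 64 Il22 UMIs in ΔMAC and 6 of the 8 in FL/FL. Il17a and Il17f were found together in 3 ΔMAC cells and 6 FL/FL cells. Tnf, an inflammatory cytokine made by many immune cells, stood at 113 CPM in ΔMAC and 80.6 CPM in FL/FL, and Csf2, the granulocyte-macrophage growth factor, at 31.7 CPM in ΔMAC and 18.1 CPM in FL/FL. Lta was lower in ΔMAC, at 12.7 CPM against 38.0 CPM in FL/FL, while Ltb was close, at 748 CPM in ΔMAC and 791 CPM in FL/FL. Ifng, the type 1 cytokine, was at 50.8 CPM in ΔMAC and 40.8 CPM in FL/FL, against 189 CPM and 298 CPM in the other Cd8-negative T cells of those libraries. Il17a and Ifng shared 2 cells in ΔMAC and 1 cell in FL/FL, and Il10 and Il21 had 0 UMIs in either library.

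Among transcription factors, Sox13, needed for this lineage in mouse, was at 54.0 CPM in ΔMAC and 46.2 CPM in FL/FL, against 1.38 CPM and 1.82 CPM in the other Cd8-negative T cells. Rora, a nuclear receptor, was at 798 CPM in ΔMAC and 783 CPM in FL/FL, and Maf, which promotes the type 17 fate, stood at 721 CPM in ΔMAC and 644 CPM in FL/FL. Zbtb16, the PLZF factor of innate-like T cells, was at 152 CPM in ΔMAC and 124 CPM in FL/FL, against 40.9 CPM and 35.0 CPM in the other Cd8-negative T cells.

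Among the receptors, Il7r, which passes the survival signal of interleukin 7, reached 2387 CPM in ΔMAC and 1969 CPM in FL/FL, and Icos, a costimulatory receptor, 809 CPM in ΔMAC and 799.7 CPM in FL/FL. Il1r1, the interleukin 1 receptor, was at 125 CPM in ΔMAC and 136 CPM in FL/FL, against 21.0 CPM and 8.20 CPM in the other Cd8-negative T cells. The 3 receptors were each higher in gated cells than in the other Cd8-negative T cells of the same library. Il18r1, a chain of the interleukin 18 receptor, was at 635 CPM in ΔMAC and 594 CPM in FL/FL. Cxcr6, a chemokine receptor of liver-resident lymphocytes, was at 638 CPM in ΔMAC and 619.5 CPM in FL/FL, and Ccr2, the receptor for monocyte chemoattractants, at 478 CPM in ΔMAC and 474 CPM in FL/FL. Ccr6, the receptor for Ccl20, was low at 65.1 CPM in ΔMAC and 62.5 CPM in FL/FL. Ramp3 and Ramp1, which pair with the calcitonin receptor-like receptor, had 431 and 675 CPM in ΔMAC, against 433 and 604 CPM in FL/FL.

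Set against the other Cd8-negative T cells of both libraries, 498 of 10222 genes with at least 50 UMIs (4.87%) were at least 2-fold higher in gated cells and 804 (7.87%) at least 2-fold lower. Since the gate chose these cells, the counts describe the population and nothing is read from them. Of 27 gamma-delta 17 surface and effector genes, 23 were at least 2-fold higher in gated cells and 3 at least 2-fold lower, with a median log2 ratio of 1.91 against 0.05 over all genes. Of 15 type 1 genes none was 2-fold higher and 12 were at least 2-fold lower, with a median log2 ratio of -1.90. Both lists were chosen with earlier results of these data known, so their counts likewise only describe the population. Ccl5, a chemokine of cytotoxic cells, was at 601 CPM in ΔMAC gated cells and 563 CPM in FL/FL gated cells, against 3003 CPM and 3435 CPM in the other Cd8-negative T cells. Nkg7, a cytotoxic granule protein, was at 109 CPM in ΔMAC and 116 CPM in FL/FL, against 429.7 CPM and 548 CPM.

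Among the ranked genes Il17a had the highest ratio, with a log2 ratio of 3.51 within ΔMAC and 5.56 within FL/FL. Kcnk1, a potassium channel, was at 138 CPM in ΔMAC and 131 CPM in FL/FL gated cells, against 18.6 CPM and 6.2 CPM in the other Cd8-negative T cells. Blk, a Src family kinase otherwise typical of B cells, was at 299 CPM in ΔMAC and 329.7 CPM in FL/FL, against 40.9 CPM and 29.3 CPM. Actn2, an actin-binding alpha-actinin, was at 174 CPM in ΔMAC and 136 CPM in FL/FL, against 25.3 CPM and 15.5 CPM. In CD8 T and NK cells these genes were lower still. Next in order were Serpinb1a, a protease inhibitor, Sdc1, the proteoglycan syndecan 1, Pxdc1, Igf1r, the insulin-like growth factor 1 receptor, Avpi1, Ramp1, Ramp3, S100a4 and Tmem176a, all higher in gated cells of each library. S100a4, a calcium-binding protein of motile cells, was at 1977 CPM in ΔMAC gated cells and 1269.8 CPM in FL/FL gated cells. Abi3bp, an extracellular matrix protein, was at 146 CPM in ΔMAC and 127 CPM in FL/FL, against 16.8 CPM and 7.66 CPM. At the lower end stood Ms4a4b, a T cell membrane protein, with 104 CPM in ΔMAC and 102 CPM in FL/FL against 551 CPM and 650.1 CPM, followed by Ifng, Gramd3, Gimap7, Klrd1, Itga4, Ctla2a, Gzmb, Klrc1 and Ccl4.

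**Figure D2:**
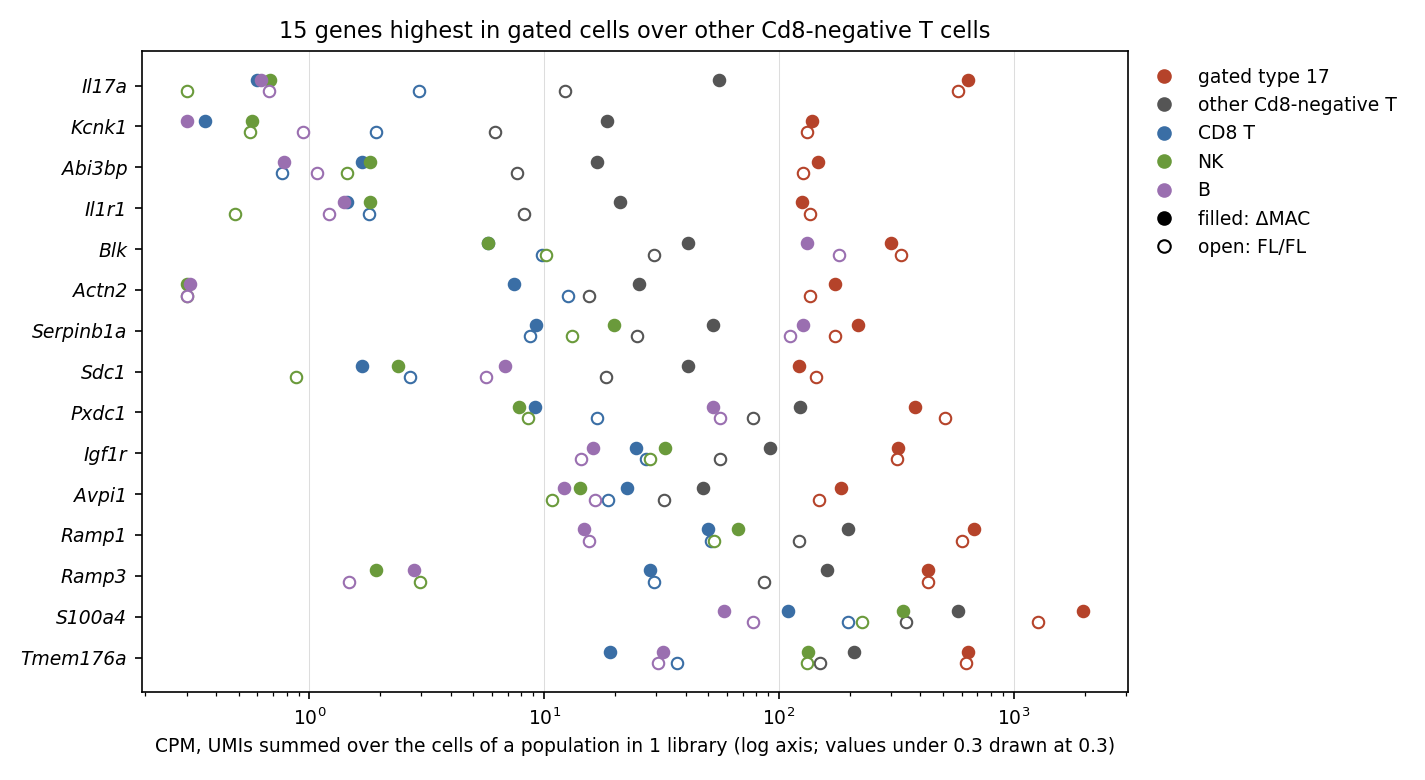
Level (CPM, log axis) of the 15 genes with the highest ratio of gated cells over other Cd8-negative T cells, in gated cells and 4 comparison populations; filled circles are the ΔMAC library and open circles the FL/FL library. In gated cells all 15 genes lie above 100 CPM in both libraries, and Il17a, Kcnk1 and Il1r1 stay under 3 CPM in CD8 T, NK and B cells.

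Gated cells were not uniform, and they were first divided by Cd163l1. Cells with a Cd163l1 UMI numbered 114 in ΔMAC and 99 in FL/FL, and cells without one, all gated on Il23r, numbered 109 in ΔMAC and 82 in FL/FL. The Cd163l1-positive cells were the shallower ones, with a median of 4453.5 UMIs against 5681 UMIs in ΔMAC and 4919 UMIs against 5833.5 UMIs in FL/FL. This split was chosen with the values known. Because the gate asks for Il23r where Cd163l1 is missing, the levels of these 2 genes across the split are set by the rule.

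Il17a sat mainly on the Cd163l1-positive side, at 1236 CPM against 70.8 CPM in Cd163l1-negative cells of ΔMAC, and at 1092 CPM against 88.7 CPM in FL/FL. It was found in 34.2% of Cd163l1-positive cells against 9.17% of Cd163l1-negative cells in ΔMAC, and in 32.3% against 8.54% in FL/FL. Sox13 followed the same line, with 103 CPM against 7.70 CPM in ΔMAC and 92.5 CPM against 1.77 CPM in FL/FL. Pdcd1, the inhibitory receptor PD-1, was at 170.3 CPM against 9.24 CPM in ΔMAC and at 167 CPM against 40.8 CPM in FL/FL. In both libraries the 3 genes were higher with Cd163l1, and Sox13 was nearly absent without it.

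Of 3455 genes with at least 100 UMIs in gated cells, 113 were at least 2-fold higher in Cd163l1-positive cells of ΔMAC and 81 in those of FL/FL. The libraries shared 29 of these genes (0.839% of all genes compared), which is 25.7% of the ΔMAC set and 35.8% of the FL/FL set. The lower side held 38 genes in ΔMAC and 49 in FL/FL and shared 12 (0.347%), which is 31.6% of the ΔMAC set and 24.5% of the FL/FL set. The libraries have no cell in common. Cd247, the zeta chain of the T cell receptor complex, was at 332 CPM against 77.0 CPM in ΔMAC and 337 CPM against 101 CPM in FL/FL. Lgals1, the lectin galectin 1, was at 1429 CPM against 531 CPM in ΔMAC and 968 CPM against 303 CPM in FL/FL. Cd69, an activation and residency marker, was at 436 CPM against 206 CPM in ΔMAC and 376 CPM against 167 CPM in FL/FL. Irf4, Abi3bp, Klrk1, Fgl2, Anxa2, Adam8 and Areg, an epidermal growth factor family ligand with 102 CPM against 0 UMIs in ΔMAC, were also on the higher side in both libraries. The Areg level in ΔMAC rested on few cells, with 62 UMIs in 10 cells and 25 of them in a single cell. Retnlg, a neutrophil gene, was among the 29 as well, at 154 CPM against 41.6 CPM in ΔMAC and 92.5 CPM against 21.3 CPM in FL/FL.

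Cells without Cd163l1 had their own genes. Cd40lg, the ligand with which T cells help B cells and macrophages, stood at 42.6 CPM in Cd163l1-positive cells against 169 CPM in Cd163l1-negative cells of ΔMAC, and at 40.7 CPM against 159.7 CPM in FL/FL. Nt5e, the ectonucleotidase CD73, was at 27.8 CPM against 112 CPM in ΔMAC and 18.5 CPM against 97.6 CPM in FL/FL, and Sdc1 at 58.9 CPM against 180.2 CPM in ΔMAC and 70.3 CPM against 215 CPM in FL/FL. Lck, the kinase that starts T cell receptor signalling, was at 37.7 CPM against 233 CPM in ΔMAC and 81.4 CPM against 193 CPM in FL/FL. All 4 genes were lower with Cd163l1 in both libraries. Pxdc1 and Fyb, an adaptor of T cell receptor signalling, also stood lower with Cd163l1 in both libraries. 5830411N06Rik, which encodes Scart2, was at 8.19 CPM against 46.2 CPM in ΔMAC and 7.40 CPM against 35.5 CPM in FL/FL. Only 4 ΔMAC cells and 3 FL/FL cells had both scavenger receptors, out of 20 and 16 cells with 5830411N06Rik. Among the receptors used in the label check, Icos was at 496 CPM against 1103 CPM in ΔMAC and 629 CPM against 963 CPM in FL/FL. Ccr6 was at 26.2 CPM against 102 CPM in ΔMAC and 42.6 CPM against 81.6 CPM in FL/FL, whereas Blk ran the other way at 398 CPM against 206 CPM in ΔMAC and 522 CPM against 145 CPM in FL/FL. Zbtb16 was close on both sides, at 146 CPM against 159 CPM in ΔMAC and 124 CPM on either side in FL/FL.

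**Figure D3:**
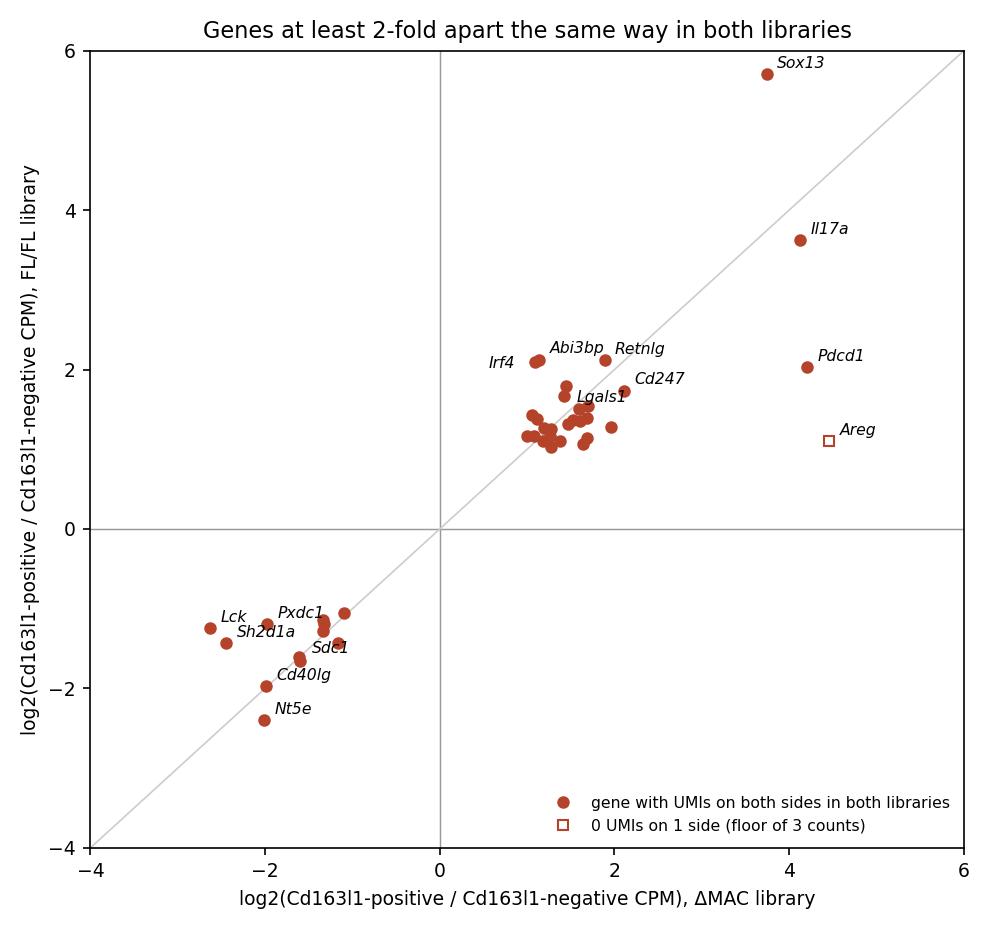
Each point is 1 of the 41 genes at least 2-fold apart in the same direction in both libraries, with the log2 ratio of Cd163l1-positive over Cd163l1-negative gated cells in ΔMAC on the horizontal axis and in FL/FL on the vertical axis; the open square has 0 UMIs on one side and its ratio is computed against a floor of 3 counts. Sox13 (3.74 in ΔMAC and 5.70 in FL/FL) and Il17a (4.13 and 3.62) lie farthest to the upper right, and Nt5e (-2.01 and -2.40) and Cd40lg (-1.99 and -1.97) at the lower left.

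Cells with an Il17a UMI, 49 in ΔMAC and 39 in FL/FL, differed from the rest of the gate in part along the same genes. The 2 splits overlap. A Cd163l1 UMI was found in 39 of these cells in ΔMAC and 32 in FL/FL, against 75 of 174 and 67 of 142 Il17a-negative cells. Of 3454 genes, 85 were at least 2-fold higher in Il17a-positive cells of ΔMAC and 89 in those of FL/FL, with 20 in both (0.579%), while 86 were lower in ΔMAC and 125 in FL/FL, with 28 in both (0.811%). Pdcd1 was at 212 CPM in Il17a-positive cells against 46.4 CPM in Il17a-negative cells of ΔMAC, and at 341 CPM against 38.0 CPM in FL/FL. Irf4, a factor required for interleukin 17 production by helper T cells, was at 113 CPM against 29.5 CPM in ΔMAC and 119 CPM against 26.5 CPM in FL/FL. Rgs1, a regulator of chemokine receptor signalling, was at 669 CPM against 278 CPM in ΔMAC and 835 CPM against 244 CPM in FL/FL. Ifng was lower in Il17a-positive cells, at 9.65 CPM against 64.3 CPM in ΔMAC and 8.52 CPM against 49.5 CPM in FL/FL. It rested on few cells, 2 of 49 Il17a-positive and 12 of 174 Il17a-negative cells in ΔMAC, and 1 of 39 and 16 of 142 in FL/FL. The 5 highest gated cells held 79.7% of the Ifng UMIs in ΔMAC and 71.1% in FL/FL. Cd27, a receptor that marks interferon-producing gamma-delta cells in mouse, was also lower with Il17a. It was at 35.4 CPM against 115 CPM in ΔMAC and 21.3 CPM against 75.9 CPM in FL/FL. The antigen presentation genes H2-Ab1, H2-Eb1 and Cd74 were higher with Il17a, with H2-Ab1 at 476 CPM against 111 CPM in ΔMAC and 660.0 CPM against 227 CPM in FL/FL. These genes are also those of B and dendritic cells, and their part in this difference was not tested. Median depth was 5521 UMIs in Il17a-positive and 5201 UMIs in Il17a-negative cells of ΔMAC, and 5034 UMIs against 5485.5 UMIs in FL/FL.

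Gated cells were a larger share of the ΔMAC library, at 2.51% (2.2 to 2.86) against 1.81% (1.56 to 2.09) in FL/FL, a ratio of 1.39 (1.13 to 1.70). The size of this ratio depended on the denominator. Among Cd8-negative, Foxp3-negative T cells, the population the gate divides, gated cells were 17.6% in ΔMAC and 8.59% in FL/FL, a ratio of 2.05 (1.68 to 2.51). Among cells with a Cd3 UMI the gate took 8.49% in ΔMAC and 5.41% in FL/FL, a ratio of 1.57 (1.28 to 1.92), and the other Cd8-negative T cells were themselves a smaller part of ΔMAC, at 11.8% against 19.3% in FL/FL. Set beside CD8 T cells the share of gated cells was 15.4% in ΔMAC and 14.3% in FL/FL, a ratio of 1.08 (0.883 to 1.32), and set beside B cells the ratio was 1.16 (0.95 to 1.42), both with intervals that include 1. A gate on Cd163l1 alone gave a ratio of 1.30 (0.981 to 1.71), whereas at least 5 of the 13 markers in place of the gate genes gave 373 cells in ΔMAC and 357 in FL/FL, a ratio of 1.18 (1.01 to 1.36). These shares come from 1 preparation per genotype, and the spread between animals and between preparations cannot be told apart from the genotype.

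Between genotypes few genes differed by 2-fold or more in gated cells. Of 5573 genes with at least 50 UMIs, 37 (0.664%) were at least 2-fold higher in ΔMAC and 98 (1.76%) at least 2-fold lower. With the log2 ratios centred on the median of all genes, which stood at -0.10 over genes with at least 20 UMIs, the counts were 54 higher and 63 lower. The ratio of ΔMAC over FL/FL was 1.10 (0.987 to 1.22) for Il17a, 1.01 (0.923 to 1.11) for Icos, 0.923 (0.733 to 1.16) for Il1r1, 0.995 (0.879 to 1.13) for Ramp3 and 1.17 (0.801 to 1.71) for Sox13. The intervals of these 5 include 1, which does not show that the genotypes are alike. The share of all genes with an interval above 1 was not counted, so nothing is read from the number of genes named next. Among the 15 genes highest over the other Cd8-negative T cells, some were higher in ΔMAC with an interval above 1. They were Actn2 at a ratio of 1.28 (1.03 to 1.59), Serpinb1a with 217 CPM in ΔMAC and 173 CPM in FL/FL (interval of the ratio 1.04 to 1.51), Avpi1 at 1.24 (1.01 to 1.53), Ramp1 at 1.12 (1.01 to 1.24) and S100a4 at 1.56 (1.46 to 1.66). Each of them was also higher in ΔMAC in the other Cd8-negative T cells. Their log2 ratios were 0.56 to 1.08 there and 0.16 to 0.64 in gated cells. In gated cells Pxdc1 was lower in ΔMAC, at 0.745 (0.658 to 0.843). The cytokine Il17f had a ratio of 0.41 (0.235 to 0.694) but rested on few cells. The 5 highest cells held 86.4% of its 22 UMIs in ΔMAC and 87.2% of its 47 UMIs in FL/FL. It was found in 3.59% (1.56 to 6.95) of gated cells in ΔMAC and 6.08% (3.07 to 10.6) in FL/FL, with overlapping intervals. Il7r stood at a ratio of 1.21 (1.15 to 1.28) and Aqp3, a water and glycerol channel, at 1.60 (1.22 to 2.12). The other Cd8-negative T cells had Il7r at 1127 CPM in ΔMAC and 776 CPM in FL/FL, so its higher value was not seen in gated cells alone.

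The genes farthest apart, by a rule on level and ratio, were partly shared with other lymphocytes. Apobec3, a cytidine deaminase that restricts retroviruses, was at 109.5 CPM in 94 ΔMAC cells and at 29.0 CPM in 27 FL/FL cells, a log2 ratio of 1.92 and a ratio of 3.78 (2.56 to 5.74). Its log2 ratio was 1.22 in the other Cd8-negative T cells, 1.08 in CD8 T cells, 0.88 in NK cells and 2.98 in B cells. Erdr1, at 225 CPM in ΔMAC and 83.3 CPM in FL/FL (log2 ratio 1.43), and Tmsb4x, the actin-binding thymosin beta 4, at 21873 CPM in ΔMAC and 10019.8 CPM in FL/FL (1.13), were also higher in ΔMAC in all 4 comparison populations, with log2 ratios of 1.63 to 1.92 for Erdr1 and 0.75 to 0.99 for Tmsb4x. Cirbp, a cold-inducible RNA-binding protein, was lower in ΔMAC, at 114 CPM against 240.0 CPM in FL/FL (-1.07), and its log2 ratio in the 4 comparison populations ran between -1.71 and -0.69. These 4 genes therefore separated the libraries and not the gated cells alone.

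Other genes were compared in the same way, with no test of a difference between populations. Cd7, an immunoglobulin-like receptor of T and NK cells, was at 139.7 CPM in ΔMAC and 64.3 CPM in FL/FL (log2 ratio 1.12), against log2 ratios between -0.24 and 0.41 in the 4 lymphocyte populations of the comparison and -0.23 in myeloid cells, taken as cells with at least 10 UMIs over Lyz2, S100a8, S100a9 and Csf1r and no Cd3 UMI. Runx2, a transcription factor, was at 110.3 CPM in ΔMAC and 57.1 CPM in FL/FL (0.95), against -0.19 to 0.34 in those populations and 0.38 in myeloid cells. Zbtb20, a transcriptional repressor, was at 102 CPM in ΔMAC and 207 CPM in FL/FL (-1.02), against -0.33 to -0.22 in the 4 populations and -1.08 in myeloid cells. S1pr1, the receptor by which lymphocytes leave tissue, was at 107 CPM in ΔMAC and 56.2 CPM in FL/FL (0.93), close to its log2 ratio of 0.90 in the other Cd8-negative T cells. Ccl4 and Cxcl10 were higher in ΔMAC, at 213 CPM against 79.7 CPM for Ccl4 and 163 CPM against 80.6 CPM for Cxcl10, but rested on few cells: a single ΔMAC cell held 72 of 268 Ccl4 UMIs and another held 92 of 205 Cxcl10 UMIs. Cxcl10 was found in fewer cells in ΔMAC (14.8%) than in FL/FL (19.3%). With at least 2 UMIs of the gate genes required, the log2 ratio of Ccl4 was -0.04, and in gated cells with Cd163l1 that of Cxcl10 was 0.03.

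The lowest ratios came from 1 FL/FL cell. C3, Rarres2, Igfbp5 and Igfbp6, genes of stromal and mesothelial cells, had log2 ratios between -5.33 and -3.80, and 1 FL/FL cell held 247 of the 247 C3 UMIs, 111 of the 113 Rarres2 UMIs, 154 of the 154 Igfbp5 UMIs and 167 of the 171 Igfbp6 UMIs. Without the gated cells rich in UMIs of another cell type (23 of 223 in ΔMAC and 17 of 181 in FL/FL), these genes were left under 20 UMIs and the count of genes at least 2-fold lower in ΔMAC was 61. Id3, an inhibitor of helix-loop-helix factors, was at 28.6 CPM in ΔMAC and 113 CPM in FL/FL, where a single cell held 69 of 125 UMIs; without the cells rich in UMIs of another type its log2 ratio was -0.63, against -1.99 with them. Traf1, an adaptor of TNF receptors (118 CPM in ΔMAC and 216 CPM in FL/FL), and Gimap5, a GTPase of lymphocyte survival (98.4 CPM in ΔMAC and 175 CPM in FL/FL), were spread over cells, with at most 14 UMIs of Traf1 and 10 of Gimap5 in any FL/FL cell. Both were also lower in ΔMAC in the 4 comparison populations, with log2 ratios between -0.69 and -0.42 for Traf1 and between -0.69 and -0.24 for Gimap5.

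**Figure D4:**
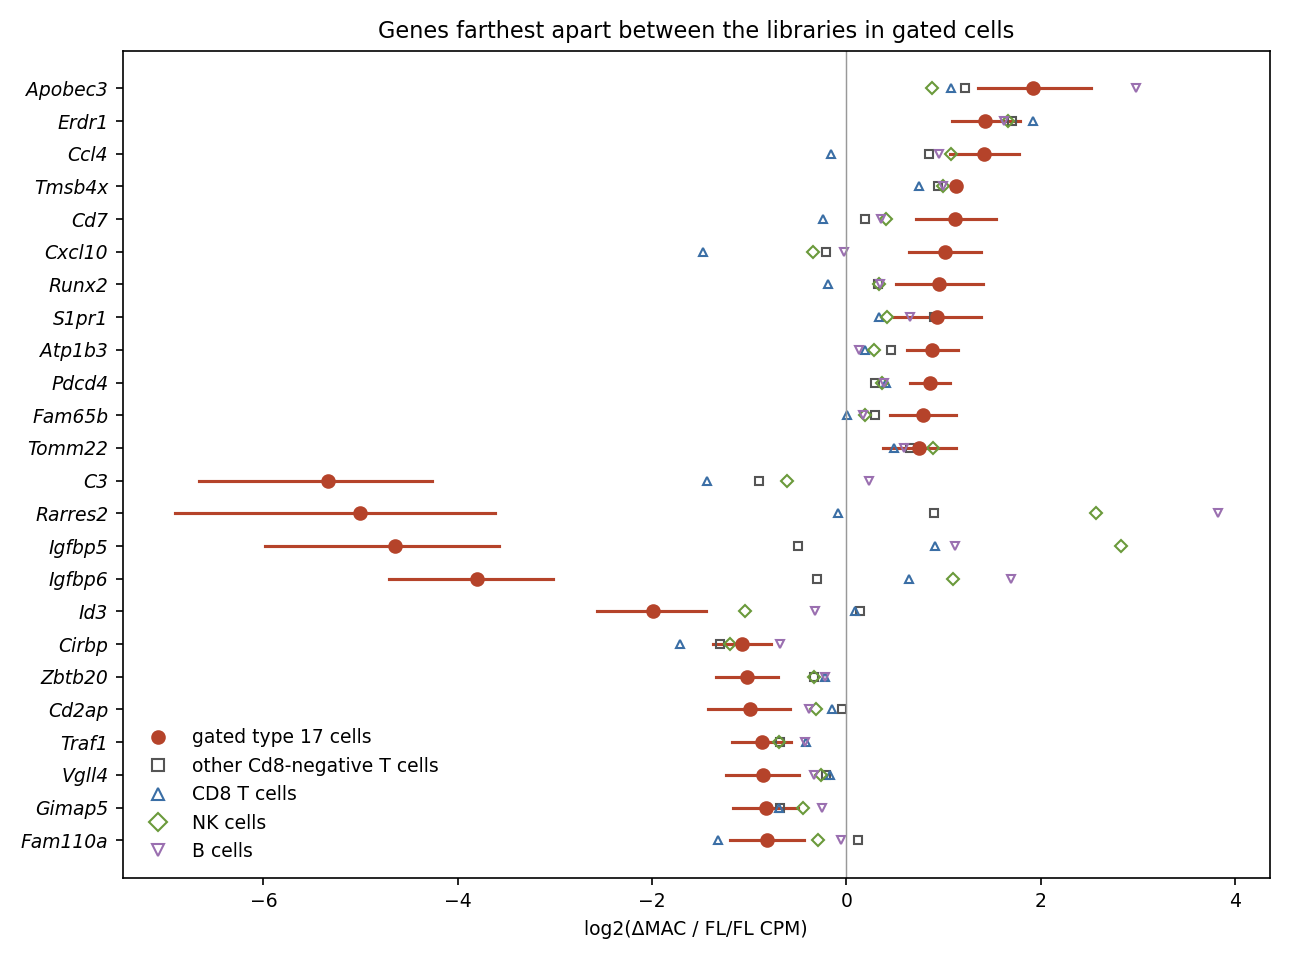
Log2 ratio of ΔMAC over FL/FL for the 12 highest and 12 lowest genes in gated cells (filled circles, bars are 95% exact intervals for counting error) and the same ratio in 4 comparison populations (open symbols). Apobec3, Erdr1, Tmsb4x and Cirbp lie on the same side of 0 in all 4 of these, while C3, Rarres2, Igfbp5 and Igfbp6 lie far to the left in gated cells only, where 1 FL/FL cell holds nearly all of their UMIs.

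Gene lists were compared between genotypes by their median log2 ratio and by the members at least 25% higher or at least 20% lower in ΔMAC, steps that 13.8% and 29.8% of all 8135 genes with at least 20 UMIs passed. For the lists that define the cells the median was 0.02 for 26 gamma-delta 17 surface and effector genes (8 of 26 higher, above the background of 13.8%, and 2 lower), 0.01 for 19 type 17 transcription factors (2 higher and 5 lower) and -0.10 for 16 T cell receptor signalling genes (0 higher and 2 lower). The cytokine list had a median of 0.15 over 17 genes, with 7 higher and 3 lower. Its extremes were sparse genes such as Il22 and Lta. Against a background of 29.8%, 13 of 19 interferon response genes were lower in ΔMAC and 2 higher, with a median of -0.48. Irf1, an interferon-induced transcription factor, was at 90.5 CPM in ΔMAC and 126 CPM in FL/FL, Ifi27l2a at 48.4 CPM in ΔMAC and 86.0 CPM in FL/FL, and Gbp7, an interferon-induced GTPase, at 56.3 CPM in ΔMAC and 88.8 CPM in FL/FL. The exceptions were Ifi203, at 254 CPM in ΔMAC and 187 CPM in FL/FL, and Ly6a, the surface antigen Sca-1, at 171 CPM in ΔMAC and 120.5 CPM in FL/FL. The interferon median was -0.05 in gated cells with Cd163l1 and -0.44 in gated cells with Il23r, and the difference between these was not tested.

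Among the metabolic lists, nuclear oxidative phosphorylation genes had a median log2 ratio of 0.17 over 32 genes, with 8 higher and 1 lower in ΔMAC: Ndufa1, a subunit of complex I, was at 171 CPM in ΔMAC and 108 CPM in FL/FL, and Atp5e, a subunit of ATP synthase, at 611 CPM in ΔMAC and 418 CPM in FL/FL. The 13 mitochondrially encoded genes had a median of -0.10, the same as all genes, with 1 higher and none lower. Glycolysis genes were also close to the background, with a median of -0.13 over 18 genes, 2 higher and 6 lower, Pkm among the lower ones, while Ldha, the enzyme that turns pyruvate into lactate, was at 411 CPM in ΔMAC and 391 CPM in FL/FL. Of 23 lipid handling genes 11 were lower and 2 higher, with a median of -0.30. Plin2, the coat protein of lipid droplets, was at 76.2 CPM in ΔMAC and 103 CPM in FL/FL, and Acadvl, an enzyme of fatty acid oxidation, at 28.6 CPM in ΔMAC and 53.4 CPM in FL/FL. Immediate early and stress genes had a median of -0.26 over 27 genes. Of these, 9 were lower, near the background of 29.8%, and 1 was higher. Klf4, a transcription factor, was at 483 CPM in ΔMAC and 839.6 CPM in FL/FL, and Jun, a subunit of AP-1, at 555 CPM in ΔMAC and 757 CPM in FL/FL. Fos, its partner, stood the other way at 835 CPM in ΔMAC and 703 CPM in FL/FL.

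**Figure D5:**
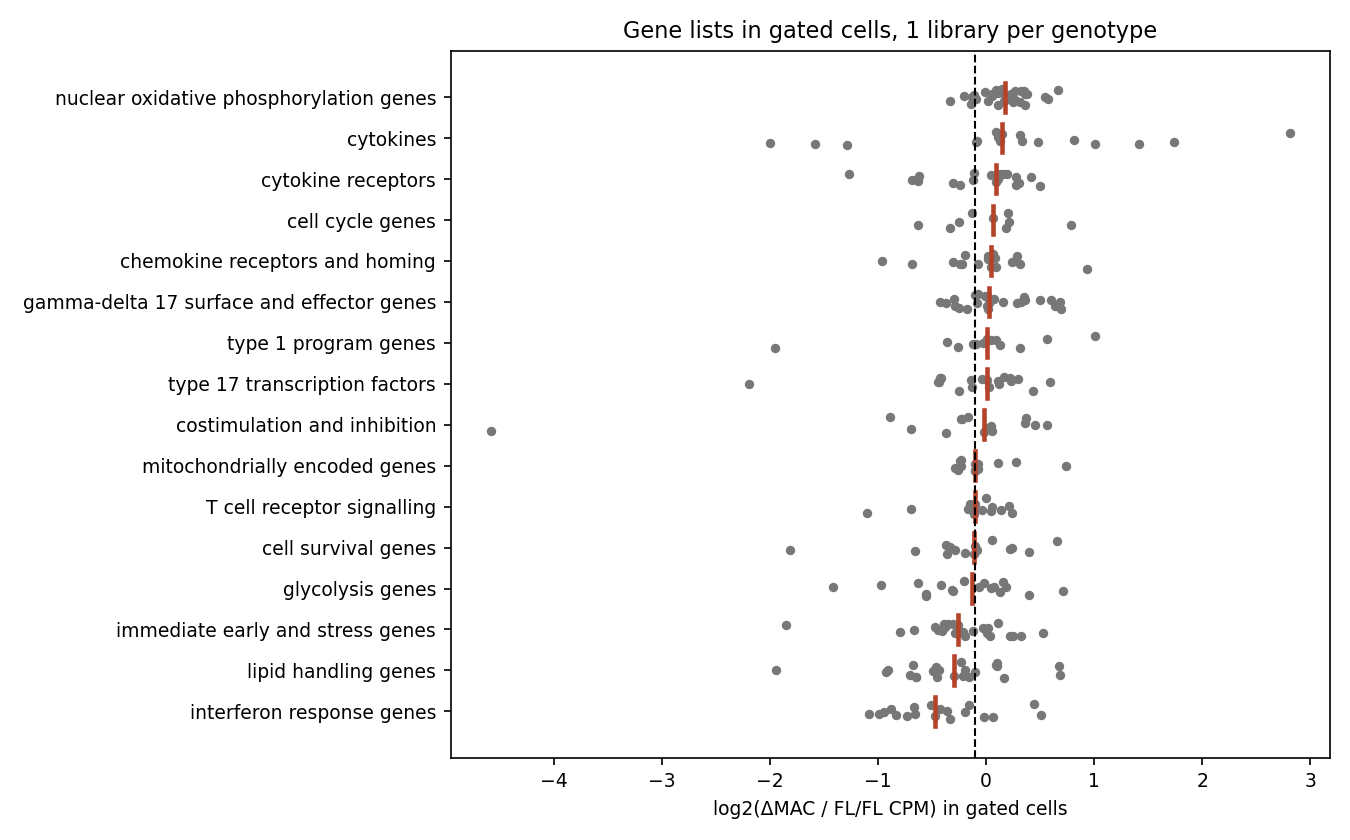
Log2 ratio of ΔMAC over FL/FL in gated cells for the genes of 16 lists (grey points, 1 gene each), the list medians (red bars) and the median of all genes (dashed line, -0.10). The medians run between 0.17 for nuclear oxidative phosphorylation genes and -0.48 for interferon response genes.

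Markers of other cell types moved between the libraries within the gate, and their part in the differences above was not tested. The 10 neutrophil genes summed to 1962 CPM in ΔMAC and 713 CPM in FL/FL, with Camp at 0 in both, and 5 cells held 92.8% of the S100a8 UMIs in ΔMAC and 85.6% in FL/FL. The 16 monocyte and macrophage genes summed to 25.4 CPM in ΔMAC and 62.5 CPM in FL/FL, with 4 genes at 0 in each. Lyz2, the lysozyme of myeloid cells, accounted for 0 UMIs in ΔMAC and for 44 UMIs in FL/FL. The same gene was found in 0.454% of B cells in ΔMAC and 18.6% in FL/FL. Dendritic cell genes, of which Cd74 and the H2 class II genes were the bulk, summed to 1459 CPM in ΔMAC and 2351 CPM in FL/FL, with Xcr1 at 0 in both and Clec9a at 1 UMI in ΔMAC and 0 in FL/FL. B and plasma cell genes summed to 204 CPM in ΔMAC and 282 CPM in FL/FL, NK and ILC1 genes to 552 CPM in ΔMAC and 569 CPM in FL/FL, and hepatocyte and biliary genes to 25.4 CPM in ΔMAC and 119 CPM in FL/FL. Endothelial and stromal genes summed to 79.4 CPM in ΔMAC and 245 CPM in FL/FL, erythroid genes to 13.5 CPM in ΔMAC and 22.6 CPM in FL/FL, and NKT genes to 339 CPM in ΔMAC and 308 CPM in FL/FL. Naive and CD4 T cell genes summed to 532 CPM in ΔMAC and 589.6 CPM in FL/FL, regulatory T cell genes to 486 CPM in ΔMAC and 552 CPM in FL/FL with Foxp3 at 0 by the gate, and ILC2 and ILC3 genes to 213 CPM in ΔMAC and 272 CPM in FL/FL.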

How the data were processed

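Single-cell 3′ RNA counts of mouse liver non-parenchymal cells were available as 1 library per genotype, and each file holds the authors' UMI counts per gene and cell barcode as deposited, with 27998 genes. Cell Ranger 6.0.0 made the matrices, per the file headers, and mm10 and Seurat 4.3.0 are named in the submitters' processing notes without a role. The version of the library kit is not settled by the labels, and free RNA was not subtracted. Members and gene lists were chosen with earlier results of these data known.

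Gated cells were found by the stated limits on genes, mitochondrial counts and marker UMIs. For each population and library, a gene's UMIs were added up and divided by the total per 1000000 UMIs (CPM), using Python 3.11.15, numpy 2.4.6, scipy 1.17.1 and pandas 2.3.3. Intervals are 95%: exact Poisson for levels, Clopper-Pearson for shares and exact conditional for ratios. A gene at 0 UMIs was set to a floor of 3 counts for a ratio. With 1 library per genotype no test was made. Comparison cells passed the same quality and cycling limits: CD8 T cells had a Cd3 and a Cd8 UMI, NK cells Ncr1 and no Cd3, B cells Cd79a and Ms4a1 and no Cd3, and the other Cd8-negative T cells a Cd3 UMI with no Cd8, Foxp3 or gate gene UMI. Named genes have at least 100 UMIs and 100 CPM in the higher group and are the 12 highest and 12 lowest ratios between genotypes and the 15 highest and 10 lowest between gated and other T cells. Mitochondrial, ribosomal, haemoglobin and receptor segment genes, genes on the marker lists of other cell types, and genes at over 10 times the gated level in myeloid, B, NK or CD8 T cells were left out of this ranking; stromal genes on none of these lists stayed in. Members of the lists may be named whatever their values, and genes of the Cd163l1 and Il17a splits were chosen after their values were seen. Doublets were called with Scrublet in scanpy 1.11.5 (328 cells in ΔMAC and 480 in FL/FL, 21 and 16 of them gated); called cells stayed in, and removing them was an alternative. The comparison of sums was tested on simulated Poisson counts with no spread between cells. The effect of single cells with many UMIs was therefore not tested. Alternatives changed the quality limits, the gate, the denominator, the depth, the scaling and the minimum count. A gene of the 13 markers is not reported here by name.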

Additional observations from a re-analysis of the deposited data

How the results depend on the processing

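No paired analysis was possible because each genotype has 1 library, and for the same reason no replicate could be left out. The alternative gate on Trdc could not be run, since no T cell receptor segment gene was among the 27998 genes counted. The ratio of gated shares, 1.39, was 1.71 with at least 2 UMIs of the gate genes and lay between 1.18 and 1.57 under the 11 other settings. Denominators not among these settings gave 2.05 for Cd8-negative, Foxp3-negative T cells, 1.08 beside CD8 T cells and 1.16 beside B cells. The 98 genes at least 2-fold lower in ΔMAC became 50 with at least 2 UMIs of the gate genes, 36 in cells with Cd163l1, 5 in cells thinned to 1000 UMIs, 63 with centred ratios, and 710 or 7 at a minimum of 10 or 200 UMIs. The 37 genes at least 2-fold higher became 5 in thinned cells and 233 or 8 at these minimums, the thinned and stricter counts coming from fewer genes. Against other Cd8-negative T cells, the 498 higher genes became 941 or 258 at these minimums and 331 in ΔMAC alone, and the 804 lower genes became 383 at the minimum of 200 UMIs. Of the list medians, 167 of 173 alternative values stayed within the members' counting intervals; 5 of the others were 0.35 for costimulation and 0.0079 for mitochondrially encoded genes with at least 2 UMIs of the gate genes, 0.45 for type 1 genes and -0.34 for mitochondrially encoded genes in thinned cells, and -0.0014 for mitochondrially encoded genes after centring. Ccl4 reversed to -0.043 with at least 2 UMIs of the gate genes. Of the other alternative values of named genes, 204 stayed within the counting interval and 31 moved without a change of sign. In cells with Cd163l1, Cxcl10 was at 0.03 (1.01 in all gated cells) and Id3 at -0.18 (-1.99). The cause was not tested. Of alternatives chosen after seeing the data, removing gated cells rich in UMIs of another cell type gave 61 lower genes and a type 1 median of -0.45, the last of the 6 list values that moved, and the share ratio was 1.18 with 5 of 13 markers, 1.53 without the Cd8 limit, 1.37 without the mixed cells and 1.46 without cells holding a Cd4 UMI. Genes under 100 UMIs in the gate, such as Il22 and Lta, are limited by counting depth and by single cells.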
